A study of Mus musculus with 12 samples.

Results

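The dual specificity phosphatases are enzymes that remove phosphate from both the threonine and the tyrosine of their substrates. 10 of their genes were followed here: Dusp1, Dusp4, Dusp5, Dusp6, Dusp8, Dusp10, Dusp16, Dusp3, Dusp11 and Dusp14. Members were taken as the probe sets whose platform annotation names exactly 1 gene, and that gene one of the 10. This gave 17 of the 45101 probe sets on the array, for 10 of 18193 genes named in that way. All 10 genes and 16 of the 17 probe sets passed the filter on low signal. The one that did not was a dim second probe set of Dusp16, with signals of 2.8 to 37.2.

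RNA of whole kidneys was measured on 12 arrays, 3 in each of 4 groups of 8-week-old male mice. Wild-type animals were C57BL/10, and TLR4 null animals were C57BL/10ScNJ, a substrain that lacks the endotoxin receptor Tlr4, so that any other difference between the substrains cannot be told apart from the loss of Tlr4. Every animal lost its right kidney under isoflurane; in the ischemic groups the vessels of the left kidney were then clamped for 23 min and reperfused for 4 h, and in the sham groups the clip was laid under the pedicle without closing it. The design asks how the kidney's transcripts differ early after ischemia and whether that difference depends on TLR4. Arrays within a group are labelled as biological replicates, with no mention of pooling, and p-values measure the spread between them.

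Members of this family that bind mitogen-activated protein kinases (MAPKs) switch those kinases off by dephosphorylating their activation loop. Several of the genes are themselves transcribed in response to MAPK signalling, so that the phosphatase acts as negative feedback on ERK, JNK and p38. They are usually sorted into inducible nuclear enzymes (Dusp1, Dusp4, Dusp5), cytoplasmic enzymes selective for ERK (Dusp6), enzymes that prefer JNK and p38 (Dusp8, Dusp10, Dusp16) and small atypical enzymes that lack the kinase-binding domain (Dusp3, Dusp11, Dusp14). In the kidney, ischemia and reperfusion are known to activate MAPK signalling in the tubular epithelium.

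Promoter windows from RefSeq (build GRCm38.p6, 250 bases before to 50 bases after a transcript start) were found for 9 of the 10 genes, not for Dusp4. The windows of Dusp1, Dusp5 and Dusp8 are shown because they were the 3 among the 9 that hold a full cyclic AMP response element (CRE, TGACGTCA) or a CArG box, the core of the serum response element. Capitals mark the CRE, its short form TGACG on either strand, and the CArG box. The windows lie at chr17:26508423-26508722 on the minus strand for Dusp1, chr19:53528895-53529194 on the plus strand for Dusp5, and chr7:142095235-142095534 on the minus strand for Dusp8. The start used for Dusp8 is not the outermost start of its gene model. The same holds for Dusp16, Dusp3, Dusp11 and Dusp14, whose windows were searched but are not shown.
Dusp1: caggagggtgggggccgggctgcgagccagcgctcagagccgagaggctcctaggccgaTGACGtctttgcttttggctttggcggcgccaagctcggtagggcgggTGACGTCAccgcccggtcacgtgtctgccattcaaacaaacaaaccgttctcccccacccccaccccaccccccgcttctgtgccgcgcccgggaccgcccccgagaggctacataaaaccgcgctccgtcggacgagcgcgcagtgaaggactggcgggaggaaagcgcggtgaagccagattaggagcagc
Dusp5: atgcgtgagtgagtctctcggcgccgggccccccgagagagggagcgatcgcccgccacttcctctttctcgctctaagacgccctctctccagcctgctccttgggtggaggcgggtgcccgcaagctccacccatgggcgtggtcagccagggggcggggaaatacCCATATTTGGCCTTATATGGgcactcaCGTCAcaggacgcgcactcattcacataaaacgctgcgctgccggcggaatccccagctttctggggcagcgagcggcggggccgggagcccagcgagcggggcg
Dusp8: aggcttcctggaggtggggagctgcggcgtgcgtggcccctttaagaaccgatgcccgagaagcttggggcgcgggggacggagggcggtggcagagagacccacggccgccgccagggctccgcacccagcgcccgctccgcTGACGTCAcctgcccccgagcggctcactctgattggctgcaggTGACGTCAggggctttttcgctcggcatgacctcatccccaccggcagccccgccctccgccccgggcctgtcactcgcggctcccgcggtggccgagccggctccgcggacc

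The full CRE occurred in 2 of the 9 member windows, against 1.79% of 32851 windows searched on both strands. Dusp1 held 1 copy, at positions -143 to -136 from its start. Dusp8 held 2 copies, at -107 to -100 and at -63 to -56; 0.0396% of all windows held 2 or more. Dusp5 held 2 adjacent CArG boxes, at -82 to -73 and at -72 to -63. A CArG box was present in 1.63% of all windows and 2 or more in 0.0183%. The short form, which overlaps the full element, was in 5 of the 9 windows (Dusp1, Dusp5, Dusp8, Dusp16 and Dusp11) and in 20.8% of all. The ETS core GGAAG was in 5 of 9 and in 71.4% of all. None of the 9 windows held AP-1 (TGANTCA, 7.81% of all), TATAAA (13.6%) or the NF-kB site (4.51%). These matches describe letters in the windows; binding was not measured.

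The 12 arrays had been scaled to an equal trimmed mean, and their median signals lay between 61.2 and 77.4. Arrays correlated at 0.963 to 0.979 within groups and at 0.933 to 0.976 between groups. Of 4 Tlr4 probe sets, 1 read between 65.6 and 120.4 with the gene present and between 0.901 and 3.38 in the null substrain, and another between 72.9 and 134.8 against 6.33 to 60.4. The other two were dim and overlapped between the genotypes (0.880 to 14.6 against 1.16 to 18.6, and 9.63 to 41.4 against 6.79 to 32.2). Their positions relative to the deletion were not worked out. The kidney markers Umod, Slc34a1 and Kap were bright on every array. Of 7 kidney epithelial genes tested, Lrp2 alone passed after ischemia, at -0.33 in wild type and -0.52 in TLR4 null kidneys on the log2 scale. Of 6 neutrophil genes, S100a8 and S100a9 rose in both genotypes. Mpo, Elane, Ngp and Csf3r did not pass, and lay below 0 in wild type (-0.33, -0.79, -0.28 and -0.22). In TLR4 null kidneys they were at -0.12, 0.11, -0.08 and -0.08. The summed signal of all 6 genes was 956.2 to 1487 in ischemic and 591.3 to 728.4 in sham wild-type kidneys. It was 634.8 to 985.2 against 403.3 to 633.7 in TLR4 null kidneys. In wild-type ischemic kidneys S100a8 and S100a9 averaged 514.9 and 390.7 of that sum. Of 7 macrophage genes, Cd68 rose in both genotypes, Csf1r fell in wild type (-0.35) and C1qa and C1qb fell in TLR4 null kidneys (-0.66 and -0.53); the summed signal was lower in ischemic than in sham kidneys (2402 to 2577 against 2780 to 2950 in wild type, 2091 to 2259 against 2346 to 2506 in TLR4 null). Of 6 endothelial genes, Tek fell in both genotypes (-1.07 and -1.28) and Emcn and Kdr fell in TLR4 null kidneys (-0.41 and -0.42); the summed signal was 2014 to 2443 against 2603 to 3109 in wild type and 1679 to 1936 against 2295 to 2477 in TLR4 null kidneys. Adipocyte genes ranged from 2377 to 12750 over the arrays with no gene of 4 passing. The 3'/5' ratio of the actin control, a measure of RNA integrity, was 1.88 to 1.99 in ischemic and 1.68 to 1.82 in sham wild-type kidneys and overlapped in TLR4 null kidneys (1.73 to 2.01 and 1.75 to 1.85). The part of these cell markers and of RNA integrity in the differences reported here was not tested. In RNA of a whole kidney, fewer cells of a type and less RNA per cell cannot be told apart.

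Ischemia raised most of the 10 phosphatase genes. These 10 were chosen with earlier results of these data known, so their counts and medians are a description and no test of the family. Of 12 other Dusp genes tested, 0 rose in either genotype. Dusp5 is among the members counted, although it passed the filter through its ischemic arrays alone and so had to differ. In wild-type kidneys 8 of 10 rose and none fell (limma, adjusted p under 0.05 over 14322 genes), where 9.17% of all genes tested rose. In TLR4 null kidneys 6 of 10 rose and none fell, where 9.86% of all genes rose. The median difference of the members was 0.96 on the log2(signal + 15) scale in wild type, with a median of -0.09 over all genes, and 1.07 in TLR4 null kidneys, with -0.07 over all genes. The ischemic and sham arrays did not overlap, with ischemic higher, for 8 members in wild type (15.6% of all genes) and for 8 in TLR4 null kidneys (13.9% of all genes). The 2 genotypes' comparisons rest on separate arrays, but their p-values share 1 estimate of spread per gene from all 12 arrays. In wild-type kidneys the rises ran from 1.62-fold for Dusp6 to 7.74-fold for Dusp14, with Dusp5, whose sham signals were too low for a fold, left out; folds are on the log2(signal + 15) scale and understate changes of dim probe sets.

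**Figure D1:**
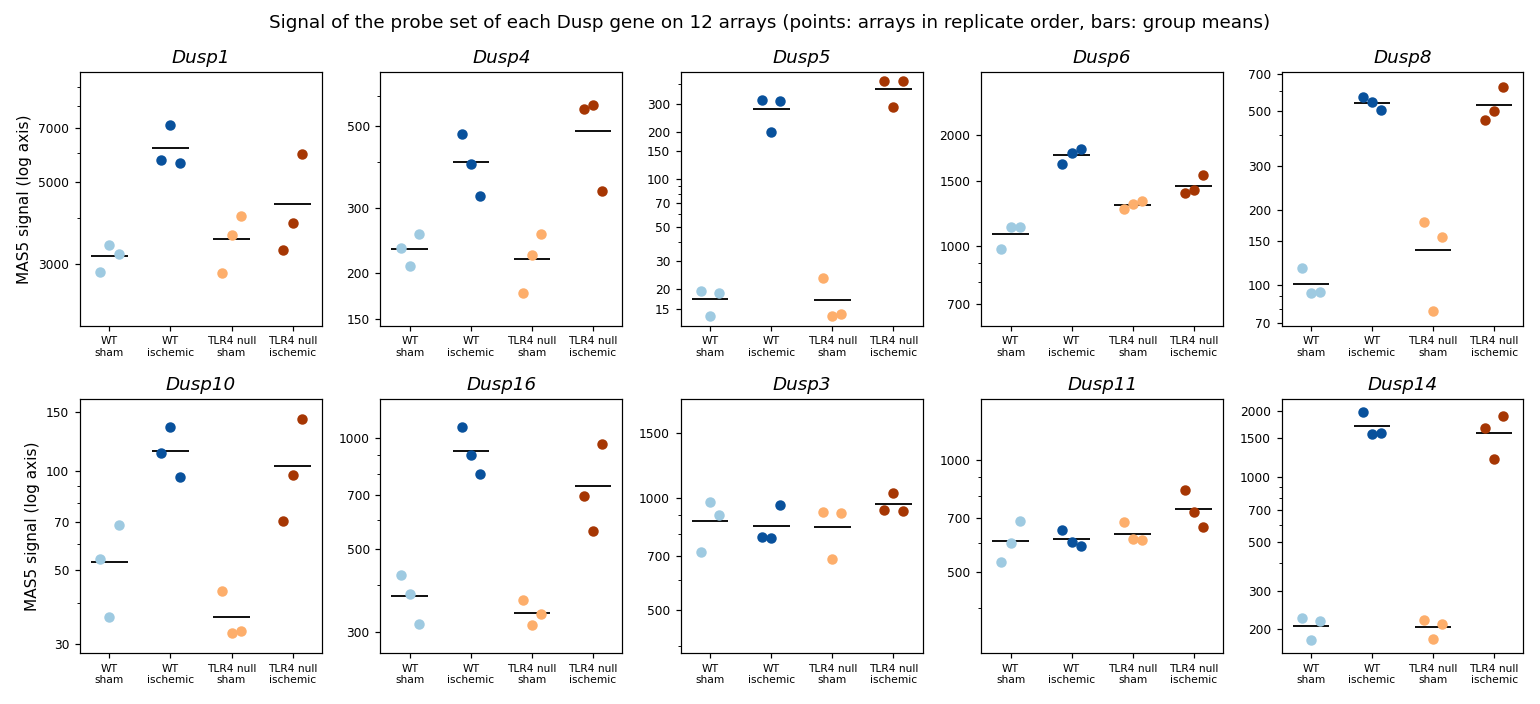
MAS5 signal (log axis, arbitrary units) of the probe set that stands for each of 10 Dusp genes, with 1 point per array in replicate order and bars at the group means, for wild-type and TLR4 null kidneys after sham surgery or ischemia. Dusp5, Dusp8 and Dusp14 are far apart between sham and ischemic arrays in both genotypes, while the TLR4 null ischemic arrays of Dusp1 spread from 3290 to 5940 and overlap their shams; each panel has its own axis range.

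Of the nuclear enzymes, Dusp5, which is selective for ERK, went from a signal near the bottom of the array to a clear one in both genotypes. Its signals were 19.5, 13.5 and 18.8 in wild-type sham kidneys and 319.9, 198.4 and 312.9 in wild-type ischemic kidneys. In TLR4 null kidneys they were 23.4, 13.5 and 13.9 after sham surgery and 416.7, 286.5 and 417.2 after ischemia. No sham array came near an ischemic one. The probe set sat at the 19.3 to 25.2 percentile of its array on all 6 sham arrays, under the level of the filter, and at the 72.2 to 83.2 percentile after ischemia; it passed the filter through its ischemic arrays alone. Dusp5 rose by 3.15 ± 0.23 (SE) on the log2(signal + 15) scale in wild type (adjusted p = 2.71e-07) and by 3.60 ± 0.23 in TLR4 null kidneys (adjusted p = 8.21e-08). With no filter, where it is tested whatever its level, adjusted p was 2.06e-06 and 6.63e-07. The sham signals were close to the 20th percentile of all signals (14.6) and to the pseudocount, so the size is set by the pseudocount and is no bound: with a pseudocount of 1 the differences were 3.91 and 4.41, and with 60 they were 2.11 and 2.48. With 60 those of Dusp14 were larger (2.72 and 2.62), so Dusp5 and Dusp14 have no settled order.

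Dusp1, an immediate-early phosphatase that acts on p38, JNK and ERK, passed the test in wild-type kidneys and not in TLR4 null kidneys; the difference between the genotypes did not itself pass. Wild-type signals were 2862, 3388 and 3206 in sham and 5737, 7145 and 5638 in ischemic kidneys, with no overlap. In TLR4 null kidneys the sham arrays read 2844, 3610 and 4059 and the ischemic arrays 3290, 3876 and 5940. Replicates 1 and 2 of those ischemic arrays lay inside the range of their shams, and replicate 3 lay inside the range of the wild-type ischemic arrays. The difference was 0.96 ± 0.18 in wild type (1.95-fold, adjusted p = 0.00133) and 0.29 ± 0.18 in TLR4 null kidneys (adjusted p = 0.298, 95% interval -0.09 to 0.67). The group means were 3152 ± 268 (SD, n = 3) and 6173 ± 843 for wild-type sham and ischemic kidneys, and 3504 ± 614 and 4369 ± 1390 for TLR4 null kidneys.

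Dusp4, a nuclear enzyme close to Dusp1 in structure, rose in both genotypes. Its signals were 233.8, 208.7 and 254.7 in sham and 476.0, 394.7 and 323.6 in ischemic wild-type kidneys. TLR4 null signals were 177.3, 224.3 and 254.6 after sham surgery and 553.5, 567.8 and 333.1 after ischemia. The groups did not overlap in either genotype, and TLR4 null ischemic replicate 3 was the lowest of its group. The rise was 0.73 ± 0.20 in wild type (1.66-fold, adjusted p = 0.0157) and 1.07 ± 0.20 in TLR4 null kidneys (2.10-fold, adjusted p = 0.00111). The wild-type call was lost without ischemic replicate 1 (0.60, adjusted p = 0.08) and without sham replicate 2 (0.66, adjusted p = 0.0624).

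Dusp6, the cytoplasmic phosphatase of ERK, had the smallest standard error of the 10 genes. Wild-type signals were 986.4, 1126.1 and 1126.0 in sham and 1665.8, 1787.6 and 1831.4 in ischemic kidneys. TLR4 null signals were 1263.8, 1298.2 and 1325.6 in sham and 1393.9, 1418.1 and 1556.0 in ischemic kidneys. In order, the group means ran from wild-type sham (1079 ± 80.7, SD, n = 3) through TLR4 null sham (1296 ± 31.0) and TLR4 null ischemic (1456 ± 87.5) to wild-type ischemic (1762 ± 85.8), and no neighbouring groups overlapped. Dusp6 rose by 0.70 ± 0.08 in wild-type kidneys (1.62-fold, adjusted p = 2.65e-05). In TLR4 null kidneys the difference was 0.17 ± 0.08 (1.12-fold, adjusted p = 0.183, 95% interval -0.01 to 0.34).

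Among the enzymes that prefer JNK and p38, Dusp8 had the largest rise. The probe set that stands for it, the brightest of 3, read 116.8, 92.3 and 93.5 in sham and 566.4, 539.8 and 501.3 in ischemic wild-type kidneys. TLR4 null arrays read 178.0, 78.6 and 155.8 against 458.0, 499.3 and 621.7. Sham arrays were more spread in TLR4 null kidneys, and in both genotypes every ischemic array lay above every sham. The rise was 2.25 ± 0.21 in wild type (4.77-fold, adjusted p = 3.19e-06) and 1.88 ± 0.21 in TLR4 null kidneys (3.69-fold, adjusted p = 1.86e-05).

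Dusp16, a phosphatase best known for JNK, also rose in both genotypes. Its signals were 426.5, 379.8 and 313.7 in sham and 1070.0, 900.4 and 797.8 in ischemic wild-type kidneys. The TLR4 null values were 364.2, 312.3 and 335.2 against 697.8, 559.2 and 963.0. Sham and ischemic arrays were apart in both genotypes, and the ischemic groups of the genotypes overlapped. The rise was 1.27 ± 0.17 in wild type (2.42-fold, adjusted p = 8.49e-05) and 1.07 ± 0.17 in TLR4 null kidneys (2.10-fold, adjusted p = 0.000381).

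Dusp10, a phosphatase of p38 and JNK, had low signals. The probe set that stands for it read 54.1, 36.1 and 68.7 in sham and 113.1, 135.6 and 95.7 in ischemic wild-type kidneys. The TLR4 null arrays gave 43.5, 32.4 and 32.9 against 70.5, 97.1 and 142.8. The groups did not overlap in either genotype, and the TLR4 null ischemic arrays were the most spread. It rose by 0.95 ± 0.27 in wild type (1.93-fold, adjusted p = 0.0198) and by 1.17 ± 0.27 in TLR4 null kidneys (2.25-fold, adjusted p = 0.00526). Its sham arrays lay at the 33.2 to 48 percentile of their arrays, in TLR4 null kidneys all under the filter; with no filter, adjusted p was 0.0306 in wild type and 0.00921 in TLR4 null kidneys. The wild-type call was lost without ischemic replicate 1 (0.95, adjusted p = 0.0561), ischemic replicate 2 (0.84, adjusted p = 0.0792) or sham replicate 2 (0.76, adjusted p = 0.0888).

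Dusp14, an atypical phosphatase that restrains T cell receptor signalling, gave the smallest p of the members. Its signals were 224.0, 178.7 and 217.0 in sham and 1967.6, 1561.9 and 1575.5 in ischemic wild-type kidneys. TLR4 null kidneys gave 219.2, 179.7 and 211.5 against 1672.7, 1198.0 and 1884.6. The sham levels of the genotypes were alike in range, and every ischemic array was far above them. It rose by 2.95 ± 0.15 in wild type (7.74-fold, adjusted p = 1.04e-08) and by 2.85 ± 0.15 in TLR4 null kidneys (7.22-fold, adjusted p = 1.54e-08), rank 10 by p of 14322 genes in each genotype.

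**Figure D2:**
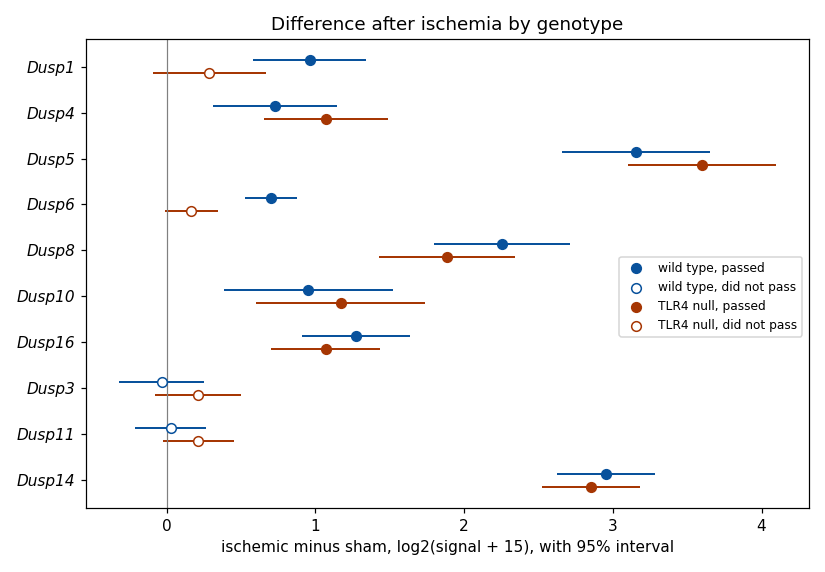
Difference between ischemic and sham kidneys on the log2(signal + 15) scale for 10 Dusp genes, in wild-type and TLR4 null mice, with 95% intervals from the limma fit of 12 arrays; filled points passed an adjusted p under 0.05. The points of both genotypes lie close together for Dusp14 (2.95 and 2.85), and lie apart for Dusp6 (0.70 and 0.17) and Dusp1 (0.96 and 0.29).

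The other atypical members did not pass with the probe sets that stand for them. Dusp3, a small phosphatase of ERK and JNK, read 718.2, 979.9 and 902.6 in sham and 786.1, 782.4 and 959.2 in ischemic wild-type kidneys, and 915.8, 684.1 and 911.0 against 929.4, 1034.3 and 922.4 in TLR4 null kidneys. Its differences were -0.04 ± 0.14 (adjusted p = 0.891) and 0.21 ± 0.14 (adjusted p = 0.321). Dusp11, which removes phosphates from the 5′ end of RNA, read 531.6, 596.6 and 684.2 in sham and 648.9, 600.6 and 588.2 in ischemic wild-type kidneys, and 680.0, 613.3 and 609.4 against 831.0, 726.7 and 660.9 in TLR4 null kidneys. Its differences were 0.03 ± 0.11 (adjusted p = 0.904) and 0.21 ± 0.11 (adjusted p = 0.204). Sham and ischemic arrays of both genes overlapped, except for Dusp3 in TLR4 null kidneys.

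The probe sets of a gene did not always agree. Of 16 probe sets tested, 11 rose in wild-type kidneys, where 7.71% of 30326 probe sets did, and 10 rose in TLR4 null kidneys, where 8.49% did; the counts are a description, since a probe set that passed the filter through its ischemic arrays alone had to differ. A second Dusp3 probe set (1456769_at) read 133.2, 119.0 and 127.4 in sham and 264.8, 293.1 and 270.0 in ischemic wild-type kidneys, and 109.9, 109.2 and 138.6 against 287.2, 259.7 and 324.0 in TLR4 null kidneys. It rose by 1.04 ± 0.14 in wild type (adjusted p = 8.54e-05 over probe sets) and by 1.19 ± 0.14 in TLR4 null kidneys (adjusted p = 2.48e-05). Another Dusp3 probe set (1425608_at) rose in TLR4 null kidneys, by 0.86 ± 0.20 (adjusted p = 0.0089), with 0.43 ± 0.20 in wild type (adjusted p = 0.181). The second Dusp11 probe set (1452594_at) read 329.7, 356.3 and 329.6 in sham and 539.8, 472.8 and 568.0 in ischemic wild-type kidneys, and rose by 0.61 ± 0.10 in wild type (adjusted p = 0.000706) and by 0.44 ± 0.10 in TLR4 null kidneys (adjusted p = 0.00734). So for Dusp3 and Dusp11 the call depends on the probe set. When each gene's probe sets were averaged, all 10 members rose in wild type; Dusp3 was then 0.48 higher (adjusted p = 0.00605) and Dusp11 0.32 higher (adjusted p = 0.017). In TLR4 null kidneys the averaged Dusp3 and Dusp11 rose (0.75, adjusted p = 0.000229 and 0.33, adjusted p = 0.0142).

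The second Dusp8 probe set (1428864_at) lay at the 22.7 to 35.9 percentile on the sham arrays and at the 52.2 to 78.7 percentile on the ischemic ones, so it passed the filter through the ischemic arrays alone and is no independent support for the first. It rose by 2.30 ± 0.35 in wild type (adjusted p = 0.0003) and by 1.63 ± 0.35 in TLR4 null kidneys (adjusted p = 0.00429). The other Dusp8 probe set (1447346_s_at), with signals of 7.7 to 75.4 over the 12 arrays, did not pass (1.21, adjusted p = 0.0606 and 1.12, adjusted p = 0.0785). The second Dusp10 probe set (1417163_at) did not pass either, and its TLR4 null arrays overlapped: 11.9, 55.5 and 16.3 in sham against 7.1, 40.6 and 52.4 in ischemic kidneys. With the probe sets of Dusp10 averaged, its rise in TLR4 null kidneys was no longer called (0.67, adjusted p = 0.199). Where in the transcripts these probe sets lie was not determined.

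**Figure D3:**
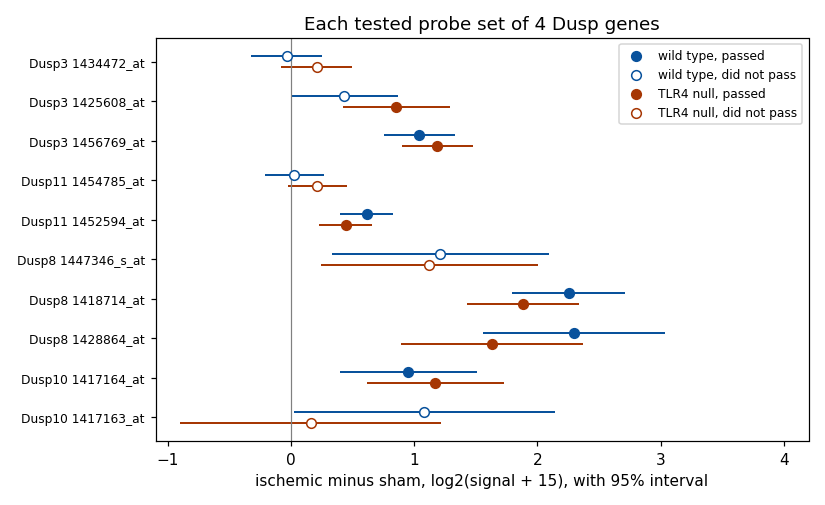
Difference between ischemic and sham kidneys, on the log2(signal + 15) scale with 95% intervals, of each tested probe set of the 4 Dusp genes that have several, in wild-type and TLR4 null mice; filled points passed an adjusted p under 0.05 over all probe sets. The probe sets of Dusp3 range from -0.04 to 1.04 in wild type, and those of Dusp11 from 0.03 to 0.61.

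The test of whether the effect of ischemia differed by genotype found no member and no gene past the threshold (limma interaction, 0 of 14322 genes, 0% called; 913 genes and 2 of 10 members at an unadjusted p under 0.05). The members at that unadjusted level were Dusp6 and Dusp1. For Dusp6 the difference after ischemia was smaller by 0.54 ± 0.12 in TLR4 null kidneys (interaction -0.54, 95% interval -0.79 to -0.29, unadjusted p = 0.000381, adjusted p = 0.321), rank 17 of all genes by p. For Dusp1 the interaction was -0.68 ± 0.25 (95% interval -1.21 to -0.14, unadjusted p = 0.0174, adjusted p = 0.699). Among the other 8 members the interaction ran from -0.37 for Dusp8 to 0.44 for Dusp5. For Dusp14 it was -0.10 with a 95% interval of -0.57 to 0.37.

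Compared directly, no member passed the threshold between genotypes. In sham kidneys 0 of 10 members passed, where 0.314% of all genes did. Under an unadjusted p of 0.05 lay 1 of 10 members, where 9.35% of all genes did. This was Dusp6, 0.26 ± 0.08 higher in TLR4 null kidneys (adjusted p = 0.262). In ischemic kidneys 0 of 10 passed, where 0.656% of all genes did. Under an unadjusted p of 0.05 lay 3 of 10, where 11.4% of all genes did. These were Dusp6 at -0.27 ± 0.08 (adjusted p = 0.185), Dusp1 at -0.54 ± 0.18 (adjusted p = 0.227) and Dusp11 at 0.26 ± 0.11 (adjusted p = 0.384). The arrays of the genotypes did not overlap for Dusp6 after sham surgery, with TLR4 null higher, and for Dusp6 after ischemia, with wild type higher. Dusp11 was apart after ischemia as well, with TLR4 null higher. Groups without overlap made up 16.7% of all genes in sham and 14.7% in ischemic kidneys, so such separation was common.

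For Dusp1 the call between genotypes in ischemic kidneys turned on a single array, the highest of its group. Without TLR4 null ischemic replicate 3, Dusp1 was lower in TLR4 null than in wild-type ischemic kidneys by the test (-0.78, adjusted p = 0.0145, with 0.0145 to 0.552 over all alternatives). Over all genes, 244 were then called in that comparison, against 94 with every array. The Dusp1 interaction did not pass without that array either (-0.92, adjusted p = 0.1). The Dusp1 difference from sham in TLR4 null kidneys was then 0.04 (adjusted p = 0.874). The same array stood apart from its group in a list of ERK-responsive transcripts, though not in that list alone. Averaged over the list, the log2 level was 9.91 in replicates 1 and 2 of the TLR4 null ischemic kidneys, 10.28 in replicate 3, and 10.26 to 10.36 in wild-type ischemic kidneys. Replicate 3 of the TLR4 null ischemic kidneys also had a summed neutrophil signal of 985.2, against 634.8 and 689.8 in replicates 1 and 2. Its actin 3'/5' ratio was 2.01 (1.73 and 1.83 in the others), and its median signal 74.3 (67.6 and 63.0). Averaged over 6 feedback inhibitors of ERK signalling, its log2 level of 9.65 lay between theirs (9.46 and 9.82). The cause was not tested.

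The genes around the phosphatases were read from lists of the pathway, chosen with earlier results of these data known. Of 7 MAP kinase genes tested, 0 rose or fell in wild-type kidneys, and 1 was at an unadjusted p under 0.05 (31.5% of all genes). In TLR4 null kidneys 1 fell: Mapk14, the p38 alpha kinase, at -0.45 ± 0.12 (adjusted p = 0.0153). Of all 14322 genes tested, 1501 fell in wild type and 1676 in TLR4 null kidneys. Mean Mapk14 signals in ischemic kidneys were 1240 in wild type and 1235 in TLR4 null, against 1316 and 1677 after sham surgery. The median of the MAP kinase list was -0.15 in wild type and -0.22 in TLR4 null kidneys. Of 18 upstream kinases, 4 rose and 2 fell in wild type, with a median of 0.15, and 3 rose in TLR4 null kidneys, with a median of 0.10. Map2k3, which activates p38, rose most (1.42 ± 0.07 and 1.29 ± 0.07). Map3k2 rose in both genotypes (0.78 and 0.71), and Map2k1, an activator of ERK, rose in wild type (0.27, with 0.21 in TLR4 null kidneys, adjusted p = 0.0969). Map2k6, the other dedicated activator of p38, fell in wild type (-0.76 ± 0.19), with -0.50 in TLR4 null kidneys (adjusted p = 0.0773).

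Of 7 kinases downstream of MAPKs, 4 rose in wild type and 2 in TLR4 null kidneys, with medians of 0.34 and 0.12. Mapkapk2, a target of p38 that stabilises cytokine mRNAs, rose by 1.05 ± 0.13 in wild type (adjusted p = 2.97e-05) and by 0.37 ± 0.13 in TLR4 null kidneys (adjusted p = 0.0499). Its interaction was -0.68 (unadjusted p = 0.00162), which did not pass after adjustment. Mapkapk3 rose in both (0.33 and 0.47), and Mknk2 and Rps6ka3 rose in wild type (0.49 and 0.34). Of 4 phosphatases of other families that act on MAPKs, 0 passed in either genotype. In each, 1 was at an unadjusted p under 0.05, where 31.5% of all genes were in wild type and 33.1% in TLR4 null kidneys.

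The other feedback inhibitors of ERK signalling gave 3 rises of 6 genes in wild type and 2 in TLR4 null kidneys, with medians of 0.52 and 0.27. Spry2, which blocks signalling from growth factor receptors to Ras, rose by 1.63 ± 0.14 and 1.49 ± 0.14. Spred1 rose by 0.74 and 0.54. Spry4 rose in wild type (1.40 ± 0.26, adjusted p = 0.00141) and was 0.44 ± 0.26 in TLR4 null kidneys (adjusted p = 0.274); its interaction did not pass (unadjusted p = 0.0206, adjusted p = 0.699). Spry1 did not pass in either genotype (0.30 and 0.11). Of 10 ERK-responsive transcripts, 7 rose in each genotype, with medians of 2.09 and 2.10, and Etv5 fell in TLR4 null kidneys (-0.78). The immediate-early genes Fos (4.80 and 4.27) and Egr1 (4.61 and 4.08) had the largest rises, followed in wild type by Phlda1 (3.36 and 2.64); Myc rose by 2.57 and 2.55.

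**Figure D4:**
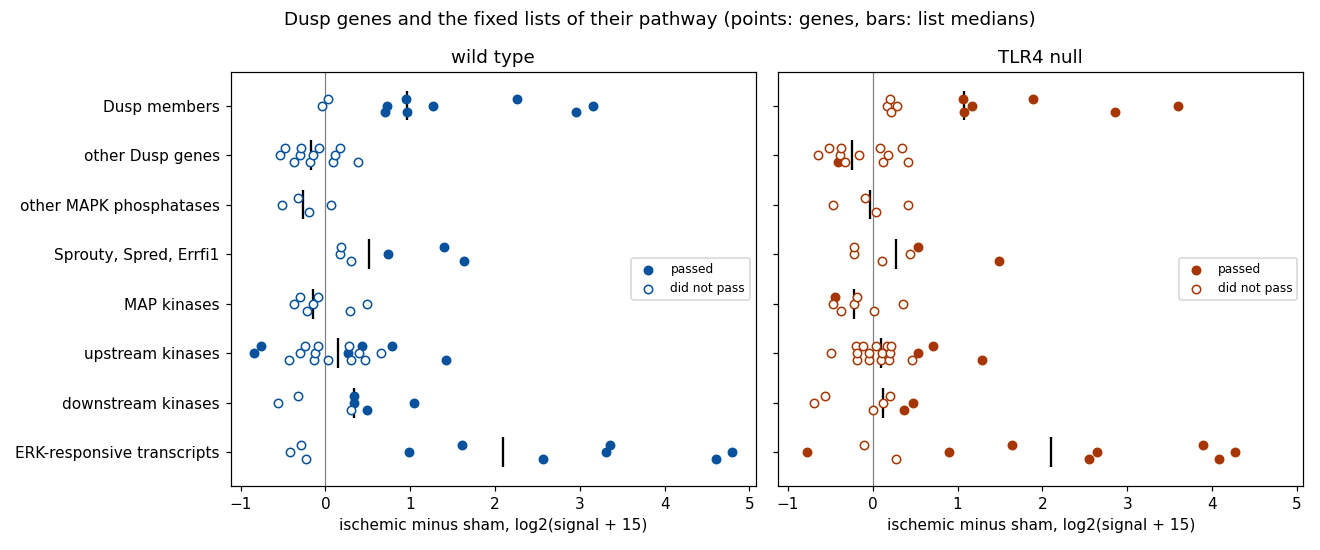
Difference between ischemic and sham kidneys on the log2(signal + 15) scale for the 10 Dusp genes and for the genes of 7 lists of their pathway, in wild-type (left) and TLR4 null (right) mice, with a bar at each list's median; filled points passed an adjusted p under 0.05. The medians of the Dusp members (0.96 and 1.07) lie above those of the MAP kinases (-0.15 and -0.22) and of the other Dusp genes (-0.17 and -0.24), and below those of the ERK-responsive transcripts (2.09 and 2.10). Because members and lists were chosen with earlier results of these data known, the order of the medians is a description only.

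For each of the 8 members that rose in either genotype, the 3 genes with the most similar profile were taken by the root mean square difference of centred log2 values over the 12 arrays. Dusp5 was closest to Dusp14 (0.34), then Chac1 and Srxn1. The size of the Dusp5 difference is set by the pseudocount, so its nearest genes may depend on that choice, which was not tested. Dusp14 was closest to Plk3 (0.26), then Srxn1 and Ifrd1, and Dusp8 to Fjx1 (0.26), then Ch25h and Ppp1r15a. Dusp16 was closest to Palld (0.15), Ube2g2 and Tiparp, and Dusp10 to Mideas (0.17), Prdm2 and Hnrnpdl. Dusp4 was closest to Pgm2 (0.15), Cars and Suco, Dusp1 to Sirt1, Rbm34 and Caprin2 (each 0.20), and Dusp6 to Ppp1r13b (0.10), Arpc2 and Itgav. Smaller values are easier to reach for genes that vary little, so they are not comparable between members.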

How the data were processed

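The deposited table holds signal intensity of 45101 probe sets on 12 arrays, which the authors computed with the MAS5 algorithm (per the submitters' processing notes); its version is not given in the sources used here. The 64 control probe sets were left out. Probe sets were named from the platform annotation, with symbols updated by Entrez ID (34741 matched, 204 not; 932 named several genes and 9160 none). Values were taken as log2(signal + 15). Testing required a signal above the 40th percentile of the same array on at least 3 arrays, and a gene was represented by its brightest passing probe set (mean log2 over all arrays). limma 3.58.1 (R 4.3.3; lmFit, contrasts.fit, eBayes with trend) fitted 4 group means over all arrays (8 residual df), two-sided, with Benjamini-Hochberg adjustment over all 14322 genes, or over 30326 probe sets where a probe set is named. The number of arrays limits the precision, and the labels name no batch.

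The members and lists were chosen with earlier results of these data known. Named genes are all 10 members, up to 4 genes of each list with the smallest p in wild type, the 3 genes nearest to each member that passed, and Tlr4; Mapk14, Etv5 and the single cell markers were named after their values were seen. The script was tested on simulated data. Alternatives changed scaling, pseudocount, filter, probe set rule, model and single arrays.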

Additional observations from a re-analysis of the deposited data

How the results depend on the processing

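Over 26 alternatives, 12 of which leave out 1 array, the counts of members called were within 1.5 times of those reported, except for TLR4 null against wild type in ischemic kidneys, where it ran from 0 to 1 when single arrays were left out. The count in wild type ran from 6 to 10 and that in TLR4 null kidneys from 6 to 7. Of 1300 single member values, 1255 kept their direction and side of the threshold, 6 lost the call, 5 gained it in the same direction and 34 changed sign, 1 of which was then called (Dusp3 in wild type with averaged probe sets). The sign changes were near 0 except where probe sets of a gene were averaged and for Dusp5 between sham groups with an adipocyte score as covariate. Averaging the probe sets gave 0.48 for Dusp3 after ischemia in wild type and -0.35 for the Dusp10 interaction. With median scaling Dusp3 was 0.052 after ischemia in wild type and 0.00 between sham groups, and Dusp14 was 0.029 between sham groups. With quantile normalization, Dusp5 and Dusp14 were 0.020 and 0.017 between sham groups. With an adipocyte score as covariate they were 0.165 and 0.083, and Dusp14 was 0.040 between ischemic groups. With array weights Dusp4 was 0.002 between sham groups and Dusp11 passed in TLR4 null kidneys (0.31, adjusted p = 0.0477). Leaving out 1 array at a time, values that changed sign ranged as follows. After ischemia in wild type, Dusp3 ran from -0.16 to 0.058 and Dusp11 from -0.061 to 0.12. The interaction ran from -0.010 to 0.43 for Dusp10 and from -0.24 to 0.088 for Dusp14. Between sham groups, Dusp4 ran from -0.20 to 0.042, Dusp5 from -0.16 to 0.053, Dusp3 from -0.18 to 0.086, Dusp11 from -0.012 to 0.17 and Dusp14 from -0.11 to 0.062. Between ischemic groups, Dusp8 ran from -0.16 to 0.057, Dusp10 from -0.40 to 0.046 and Dusp14 from -0.26 to 0.069.

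The labels number the replicates of each group, but arrays of the same number did not deviate together (correlations of -0.062 to 0.104 over 18 pairs). With the number as a replicate block, 8 members were called in wild type and 6 in TLR4 null kidneys, and 0 in the other comparisons. Over all genes, median scaling called 1788 in wild type, 1239 of them higher, against 2814 and 1313 as reported, and 2014 against 3088 in TLR4 null kidneys. Genes called between genotypes ranged from 2 to 160 in sham (45 as reported) and from 10 to 244 in ischemic kidneys (94 as reported). The interaction had 15 genes past the threshold without TLR4 null ischemic replicate 3, no member among them (Dusp6 -0.58, adjusted p = 0.0821).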

Other observations

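Of 15 other Dusp genes listed, 12 were tested. Of these, 0 rose or fell after ischemia in wild-type kidneys (limma), with a median of -0.17. In TLR4 null kidneys the median was -0.24 and 1 fell, where 1676 of all 14322 genes did. At an unadjusted p under 0.05 were 2 in wild type (31.5% of all genes) and 4 in TLR4 null kidneys (33.1%). The one that fell was Dusp19, at -0.41 ± 0.13 (adjusted p = 0.0307), with -0.30 in wild type (adjusted p = 0.11). Dusp23 was at -0.47 in wild type and -0.16 in TLR4 null kidneys, Dusp15 at -0.54 and 0.17, and Dusp28 at -0.29 and -0.39; none of these passed. The summed signal of the 12 genes was 2148 to 2359 in ischemic and 2370 to 2547 in sham wild-type kidneys, and 2326 to 2512 against 2355 to 2632 in TLR4 null kidneys.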
